A study of Arabidopsis thaliana with 2 samples.

Results

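Aux/IAA and ARF genes encode the nuclear machinery of the auxin response. ARF proteins (auxin response factors) bind DNA at auxin-responsive genes, and Aux/IAA proteins are short-lived repressors that bind ARFs and recruit TOPLESS corepressors. Auxin brings an Aux/IAA protein together with a TIR1 or AFB receptor, which leads to its degradation and frees the ARF. In roots this pathway shapes lateral root formation, gravitropism and root hair growth. The genes were taken as all protein-coding genes of chromosomes 1 to 5 in the RefSeq gene table whose symbol or synonym is IAA or ARF plus a number. That gave 52 of 27444 protein-coding genes, 29 Aux/IAA and 23 ARF genes, after 2 genes of ADP-ribosylation factors that carry an ARF number were left out. For 8 of the 52 the table's symbol is another name, such as MP for ARF5, ETT for ARF3, NPH4 for ARF7, SHY2 for IAA3 and AXR3 for IAA17, and the IAA or ARF name is used here.

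The data were 1 list of 8002 peaks from chromatin immunoprecipitation with sequencing (ChIP-seq), which maps where a protein sits on DNA, in roots of Arabidopsis thaliana. The plants carry TGA1, a TGA-type bZIP transcription factor, tagged with GFP, a fluorescent protein (TGA1-GFP). The labels name 1 library made with a GFP antibody and 1 with IgG, an antibody with no set target, both from TGA1-GFP roots, with no replicate of either. The labels used here give no promoter of the fusion, plant age or nitrogen treatment. The list holds positions alone, with no height, fold enrichment, p-value or read count, so the depth is unknown and all comparisons below are descriptions with no test. A gene has a peak here when the midpoint of a peak lies inside it or within 1000 bp of either end. Width and place in the list (line number, whose meaning the file does not give) were the measures left to describe a peak.

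A TGA1-GFP peak was present at 17 of the 52 genes (32.7%), against 24.6% of all protein-coding genes. At the share of all protein-coding genes, 12.8 of 52 genes would have one, so the surplus is about 4 genes. The Aux/IAA genes stood at 9 of 29 (31.0%) and the ARF genes at 8 of 23 (34.8%). Within the ARFs the classes differed in their counts, with 4 of 5 in class A, 2 of 15 in class B and 2 of 3 in class C. With so few genes in classes A and C, a change of 1 gene moves the share widely.

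**Figure D1:**
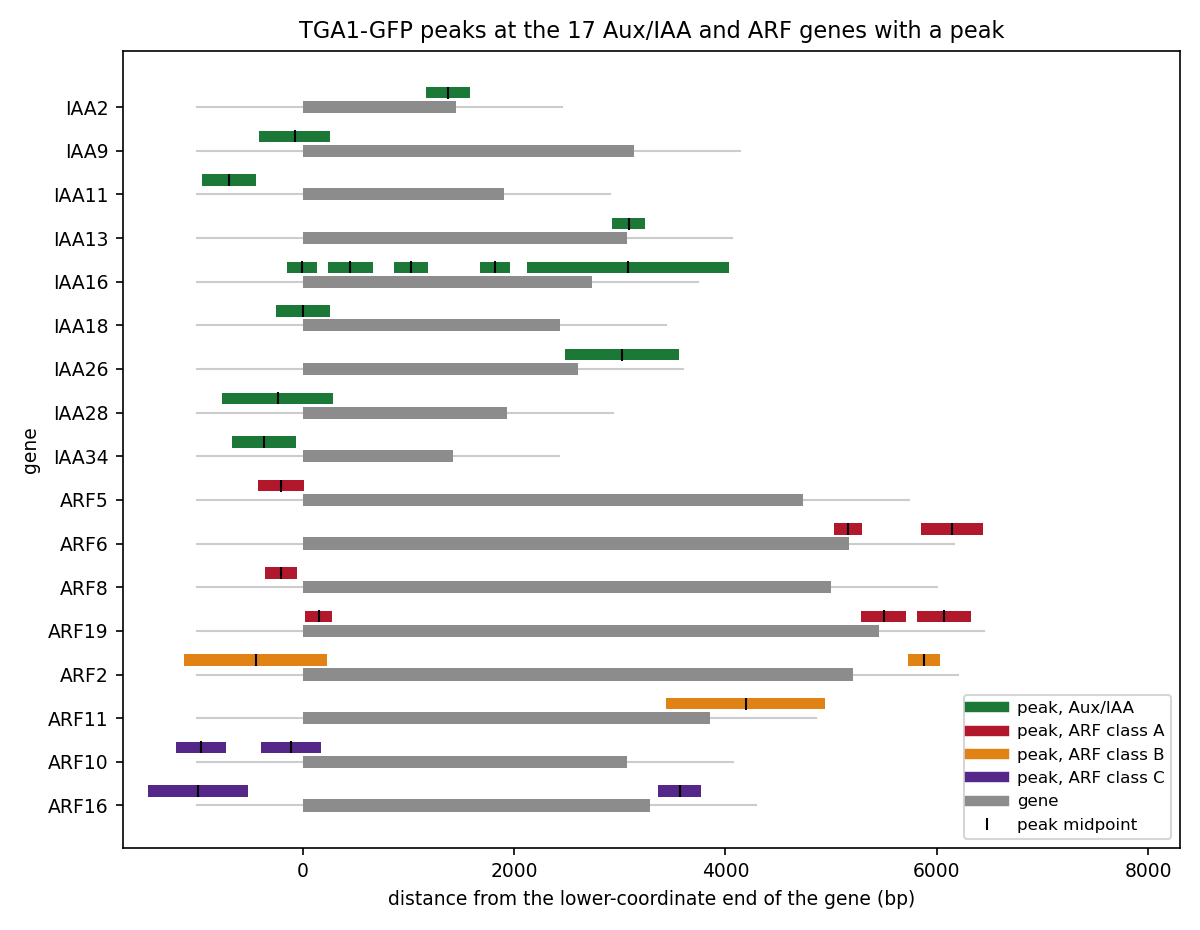
Each row is 1 of the 17 genes with a peak. The grey bar is the gene, the thin line its 1000 bp flanks, the coloured bars above it are peaks and the ticks their midpoints, in bp from the lower-coordinate end. IAA16 carries 5 peaks, and most other genes carry 1 near an end.

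The class A ARFs, whose glutamine-rich middle region activates transcription, carried peaks at 4 of their 5 genes. ARF19 (AT1G19220), which acts with ARF7 in lateral root formation, had 3. The first was 510 bp wide at place 2439, centred 619 bp outside the gene, and the second was 429 bp wide at place 3032, 46 bp outside the same end. The third was 258 bp wide at place 7421, 150 bp inside the opposite end. ARF19 therefore had peaks at both of its ends, and the third was also in reach of the neighbour AT1G19210, 145 bp away.

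ARF5 (AT1G19850, MONOPTEROS), required to form the embryonic root and vascular tissue, had 1 peak of 428 bp at place 744 (chromosome 1, 6886250 to 6886677, TAIR10). Its midpoint lay 206 bp outside the gene and its edge reached 9 bp into it. ARF6 (AT1G30330), which acts with ARF8 in flower maturation and adventitious rooting, had the earliest peak of the whole family. It stood at place 338, was 590 bp wide (chromosome 1, 10691674 to 10692263) and was centred 980 bp outside the gene, just within reach. Another ARF6 peak, 268 bp wide at place 7913, was centred 6 bp inside the same end.

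ARF8 (AT5G37020) had 1 narrow peak of 298 bp at place 7176, 208 bp outside the gene. It lies in a stretch of chromosome 5 with few peaks: of the 84 other protein-coding genes within 250000 bp on each side, 1 had a peak (1.19%). ARF7 (AT5G20730), the partner of ARF19 in lateral root formation, known also for its role in phototropism, had no peak, and its nearest midpoint lay 7263 bp away. The earliest peak of each class A gene thus stood at place 338 for ARF6, 744 for ARF5, 2439 for ARF19 and 7176 for ARF8.

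Class C, the ARF10, ARF16 and ARF17 genes that are targets of the microRNA miR160, held peaks at 2 of 3 genes. ARF10 (AT2G28350), which with ARF16 controls root cap development, had 2 peaks on 1 side, 564 bp wide at place 2048 and 473 bp wide at place 3622, with midpoints 113 and 967 bp outside the gene. ARF16 (AT4G30080) had 1 peak on each side. These were 944 bp wide at place 1542, 991 bp outside the gene, and 408 bp wide at place 6628, 279 bp outside the other end. ARF17 (AT1G77850) had none, and its nearest midpoint, of a 254 bp peak at place 6576, lay 1421 bp away.

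Class B, which holds ARFs that repress in reporter assays and several little-studied genes, had peaks at ARF2 and ARF11. ARF2 (AT5G62000), a repressor of growth that also acts in senescence and seed size, carried a wide peak of 1360 bp (place 2005; chromosome 5, 24909065 to 24910424) that ran 234 bp into the gene and was centred 447 bp outside it. A second ARF2 peak of 297 bp at place 7335 lay 675 bp beyond the other end, with its midpoint inside the heat shock factor gene HSFB2A. ARF11 (AT2G46530) carried one of 1502 bp (place 3872; chromosome 2, 19108075 to 19109576), centred 339 bp outside the gene and 688 bp from its neighbour AT2G46535.

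The other 13 class B genes had none. Of these, 8 (ARF12 to ARF15 and ARF20 to ARF23) lie on chromosome 1, 7 of them close together and ARF23 further along, and their nearest midpoints were 3592 to 29731 bp away. Few genes there had a peak: between ARF13 and ARF14, 13 of 110 other protein-coding genes did (11.8%). Without these 8 genes, 2 of 7 class B genes had a peak (28.6%), and 8 of 15 ARF genes in all (53.3%), against 24.6% of all protein-coding genes. Leaving out 8 genes that all lack a peak raises the share of the rest by construction. ARF1 and ARF3 had their nearest midpoints 9182 and 7006 bp away, while ARF18, ARF9 and ARF4 had them at 1244, 1771 and 2184 bp, beyond the reach.

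**Figure D2:**
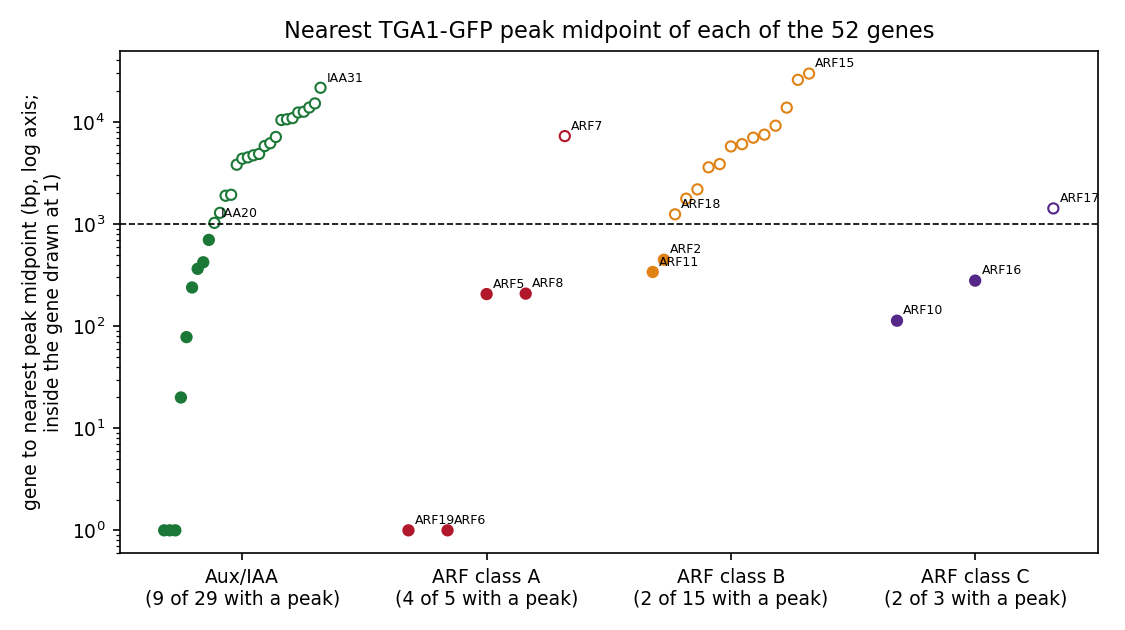
Each point is 1 of the 52 genes, at the distance to its nearest peak midpoint (bp, log axis, inside the gene drawn at 1). Filled points have a peak by the rule and open points do not, and the dashed line is the 1000 bp reach. IAA20, at 1026 bp, is the closest gene beyond the line.

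Among the Aux/IAA genes IAA16 (AT3G04730) carried the most peaks. A dominant mutation that stabilises this repressor lowers the response to auxin and to abscisic acid. The widest of its 5 peaks, at place 416, measured 1915 bp (chromosome 3, 1290276 to 1292190). It was centred 342 bp outside the gene and reached 616 bp into it. The other 4 were narrow and late in the list: 289 bp at place 6056 with its midpoint 6 bp outside the opposite end, and 425, 315 and 280 bp at places 7773, 7291 and 7998 inside the gene.

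From the first to the last, the IAA16 peaks spanned 4186 bp and covered 64.9% of the gene. IAA16 was the 1 protein-coding gene of 27444 with 5 peaks in reach, and 20 genes had 4 or more. The gene is 2737 bp long, near the median of the 52 (2593.5 bp), and 25.8% of its 151 neighbours within 250000 bp on each side had a peak. None of its 5 peaks was in reach of another protein-coding gene.

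IAA18 (AT1G51950), IAA26 (AT3G16500) and IAA28 (AT5G25890), related repressors of which IAA28 acts in specifying lateral root founder cells, each carried 1 peak. The peak of IAA18 was 511 bp wide at place 4437 and lay across an end, with its midpoint 4 bp inside the gene. The peak of IAA26 was 1083 bp wide at place 4514 (chromosome 3, 5614684 to 5615766), 422 bp outside the gene. At IAA28 it was 1055 bp wide at place 2828 (chromosome 5, 9032438 to 9033492), 239 bp outside, and it ran 289 bp into the gene. All 3 peaks therefore covered a gene end.

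The remaining 5 Aux/IAA genes with a peak had 1 each, of 309 to 671 bp. IAA9 (AT5G65670), whose relative in tomato controls leaf shape and fruit set, had the earliest, 671 bp wide at place 1829 and centred 78 bp outside the gene. IAA34 (AT1G15050), a member that lacks the degron motif through which receptors bind, had a 605 bp peak at place 2604, 364 bp outside the gene. Its midpoint was closer to the neighbour GAT1_2.1, a nitrogen-responsive glutamine amidotransferase gene, at 225 bp.

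IAA2 (AT3G23030), an early auxin-induced gene, had a peak of 422 bp (place 4398) centred 74 bp inside an end. IAA13 (AT2G33310), a relative of the embryo regulator IAA12, had a 309 bp peak at place 5211, 20 bp outside the gene. At IAA11 (AT4G28640) a 505 bp peak at place 4736 lay 699 bp outside and was closer to ABCB23, at 310 bp. Counting each peak for its nearest protein-coding gene alone would therefore take IAA34 and IAA11 off the list. That leaves 7 Aux/IAA genes, or 15 genes in all, against 18.6% of all protein-coding genes.

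The 20 Aux/IAA genes without a peak had their nearest midpoints 1026 to 21598 bp away, with a median of 5990 bp. They include well-known regulators of root development. IAA14 (SOLITARY ROOT), which blocks lateral root initiation when stabilised, had its nearest midpoint 13836 bp away. IAA17 (AXR3) and IAA7 (AXR2), known from dominant auxin-resistant mutants, had theirs at 4496 and 12585 bp, and IAA3 (SHY2), which sets the size of the root meristem, at 1893 bp. IAA12 (BODENLOS), the repressor of ARF5 in the embryo, had a 342 bp peak 1287 bp away, IAA19 a 309 bp peak 1934 bp away and IAA20 a 339 bp peak 1026 bp away, the closest miss.

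The other Aux/IAA genes without a peak were IAA1, IAA4, IAA5, IAA6, IAA8, IAA10, IAA15, IAA27, IAA29, IAA30, IAA31, IAA32 and IAA33. Their nearest midpoints ranged between 3809 bp at IAA30 and 21598 bp at IAA31. None of the 35 genes without a peak by the rule was overlapped by one. At a reach of 2000 bp, 13 Aux/IAA and 11 ARF genes had a peak (44.8% and 47.8%), against 31.8% of all protein-coding genes. At 500 bp these were 8 and 8 genes (27.6% and 34.8%), against 19.1%, since IAA11 alone dropped out: the peaks closest to the limit, at ARF16 (991 bp), ARF6 (980 bp) and ARF10 (967 bp), belonged to genes that had a nearer one.

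**Figure D3:**
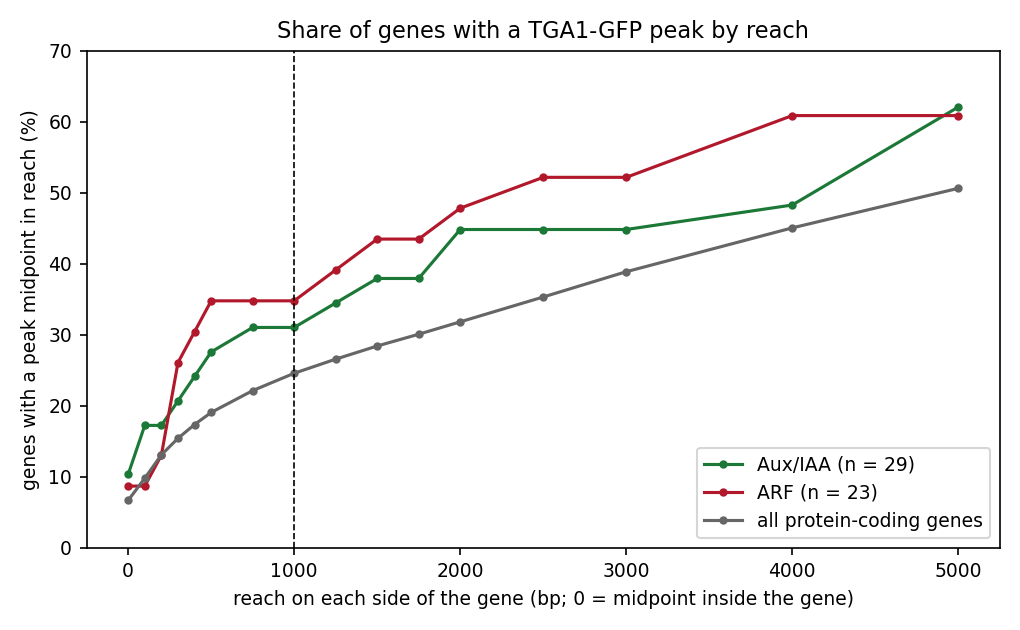
The share of genes (%) with a peak midpoint inside or within a given distance (bp) is shown for 29 Aux/IAA genes, 23 ARF genes and all protein-coding genes. At 1000 bp (dashed line) the shares are 31.0, 34.8 and 24.6%, and at 100 bp the ARF genes, at 8.70%, are below the 9.80% of all protein-coding genes.

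The 27 peaks at the 17 genes were close to the whole list in median width, place and position. Their median width was 473 bp (quartiles 312 and 638 bp), against 434 bp over all 8002 peaks (334 and 625 bp). Their median place was 4398, against 4001.5 over all peaks, and with the list cut into 4 equal parts, 5, 8, 5 and 9 of them fell in these parts in order. The 5 peaks of 1000 bp or wider, at IAA16, ARF11, ARF2, IAA26 and IAA28, made up 18.5% of the 27, against 9.14% of all peaks.

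Of the 27 midpoints, 7 lay inside the gene (25.9%), against 24.4% over all gene and peak pairs in reach, and the median distance of those outside was 340.5 bp against 349 bp. These belonged to 5 genes (9.62%), against 6.69% of all protein-coding genes with a midpoint inside. Of the 7, 4 were within 200 bp of an end and the other 3 were all at IAA16. The gene table gives no strand, so the start and the end of a gene could not be told apart. By coordinate, 11 midpoints lay below their gene and 9 above it.

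**Figure D4:**
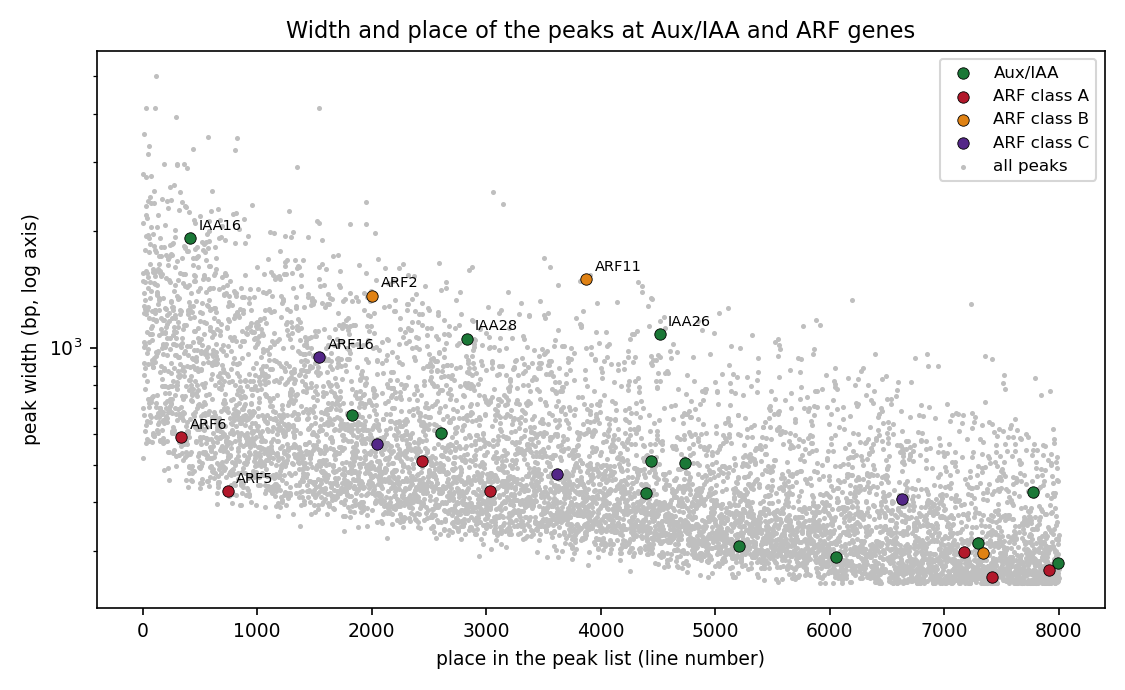
Coloured points are the 27 peaks at Aux/IAA and ARF genes and grey points all 8002 peaks, by place in the list (line number) and width (bp, log axis). The peaks at these genes are spread over the list, with the earliest at ARF6 (place 338), IAA16 (place 416) and ARF5 (place 744).

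Other counts lay further from the background, with no test made of the gap. A peak covered an end of the gene at 13 of the 52 genes (25%), against 12.7% of all protein-coding genes. And 6 genes had 2 or more peaks (11.5%), against 5.24% of all protein-coding genes: IAA16, ARF19, ARF2, ARF6, ARF10 and ARF16. That is 1 of 29 Aux/IAA genes (3.45%, below the 5.24%) and 5 of 23 ARF genes (21.7%). Some of these peaks lie close together, as at ARF19, where 1 ended at 6633393 and the next began at 6633498. The list does not show whether such peaks are separate sites. With 3 or more stood IAA16 and ARF19, 2 of 52 genes (3.85%), against 0.827% of all protein-coding genes. Peaks shared with another protein-coding gene were 5 of 27 (18.5%), against 34.5% of the 6200 peaks in reach of any protein-coding gene. Non-coding genes are not counted in these shares. An annotated non-coding gene was in reach of 5 of the 27 peaks, at ARF8, ARF2, IAA9, IAA26 and IAA34. The same share over all peaks is not given here, so nothing is read from that count.

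The surroundings of the genes differ from those of the average gene, and their part in these counts was not tested. Flanks were measured on both sides together to the nearest protein-coding gene that does not overlap, so they may hold non-coding or overlapping genes. Their median was 6111.5 bp at the 52 genes, against 2877 bp over all protein-coding genes. None of 5 Aux/IAA and ARF genes with up to 2000 bp of these flanks had a peak, against 22.2% of all genes with such flanks. With over 2000 to 6000 bp 7 of 20 had one (35%, against 26.6%), and with more 10 of 27 (37.0%, against 24.7%).

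By length, 4 of 19 genes of up to 2000 bp had a peak (21.1%, against 20.4% of all such genes), 8 of 24 of over 2000 to 4000 bp (33.3%, against 28.6%) and 5 of 9 longer ones (55.6%, against 27.8%). The 5 long ones were ARF2, ARF5, ARF6, ARF8 and ARF19. The share of neighbours within 250000 bp on each side that had a peak averaged 24.8% over the 52 genes, close to the 24.6% of all protein-coding genes. This mean joins unlike groups. The median was 29.4% at the genes with a peak (range 1.19 to 44.8%) and 22.9% at those without (8.82 to 40.3%). At the ARF genes clustered on chromosome 1 the median was 11.5%. The part of these surroundings in the counts was not tested.

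In 15 pairs of closely related genes, listed from known relationships of these proteins after the values were seen, 13 of the 30 genes had a peak. The shares beside it are 32.7% of the 52 genes and 24.6% of all protein-coding genes. The count depends on which genes were listed. The genes left out with a peak were IAA16, IAA28, ARF5 and ARF11. More were left out without one: ARF9, ARF12 to ARF15, ARF17, ARF18, ARF20 to ARF23, IAA15, IAA17, IAA19, IAA27, IAA29, IAA31 and IAA33. The list is therefore tilted to genes with a peak. A peak was present at both genes of 3 pairs, at 1 gene of 7 and at neither gene of 5, counts from which nothing is read about the pairing. The pairs with both were ARF6 and ARF8, ARF10 and ARF16, and IAA18 and IAA26. The pairs with 1 were ARF19 but not ARF7, ARF2 but not ARF1, IAA2 but not IAA1, IAA9 but not IAA8, IAA11 but not IAA10, IAA13 but not IAA12, and IAA34 but not IAA32. A missing entry in the list does not show that TGA1-GFP was absent, since the reads behind it are not known.

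Elsewhere in the auxin pathway, 40 of 138 other auxin genes had a peak (29.0%), against 24.6% of all protein-coding genes. Without the 80 genes named SAUR (small auxin up RNA), whose median length was 815 bp, 24 of 58 did (41.4%). The median length of these 58 was 2716.5 bp, against 2078 bp over all protein-coding genes, and its part in the share was not tested. The group counts below stand beside the same 24.6%. Of the 5 TOPLESS corepressor genes, whose proteins Aux/IAA repressors recruit, 4 had one. TPR2 (AT3G16830) had an 886 bp peak at place 17 and TPR3 (AT5G27030) a 572 bp peak at place 80, both far earlier in the list than any peak at an Aux/IAA or ARF gene. TPR1 (AT1G80490) had a 1229 bp peak at place 516 and TPL (AT1G15750) a 642 bp peak at place 850.

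Of the 6 receptor genes 4 had a peak, led by AFB3 (948 bp, place 317) and TIR1 (1252 bp, place 1103). Among 9 GH3 genes, whose enzymes conjugate auxin or related acids to amino acids, 4 did: GH3.3 had a 584 bp peak at place 40, GH3.17 a 1312 bp peak at place 250, GH3.2 an 881 bp peak at place 705 and GH3.5 a 633 bp peak at place 1472. Of 3 ABCB transporter genes that move auxin, ABCB4 and ABCB1 had a peak. Of the AUX1 and LAX influx carriers LAX1 alone had one, 1 of 4.

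At the synthesis step 1 of 14 genes had a peak. Among the TAA1, TAR and YUC genes, which make auxin from tryptophan, it was TAA1, with a peak 295 bp wide at place 5361. That peak was centred 931 bp outside the gene, near the limit. Of the genes named SAUR plus a number 16 of 80 did (20%), against 24.6% of all protein-coding genes. The table gives 2 of these names to 2 loci each, so a locus may not be the SAUR gene its name says, as for the SAUR21 entry with a peak (AT5G01830). Without these 4 loci 15 of 76 did (19.7%). The earliest were a 1262 bp peak at SAUR78 at place 198, a 1283 bp peak at SAUR44 at place 443, a 1566 bp peak at SAUR45 at place 1124 and a 504 bp peak at SAUR58 at place 1224. Of 5 LBD genes that act downstream of ARF7 and ARF19, LBD17 and LBD18 had peaks, centred 900 and 923 bp outside the gene. Both are near the 1000 bp limit. Of 4 genes downstream of ARF5, TMO5 and TMO6 had peaks, centred 285 and 97 bp outside.

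**Figure D5:**
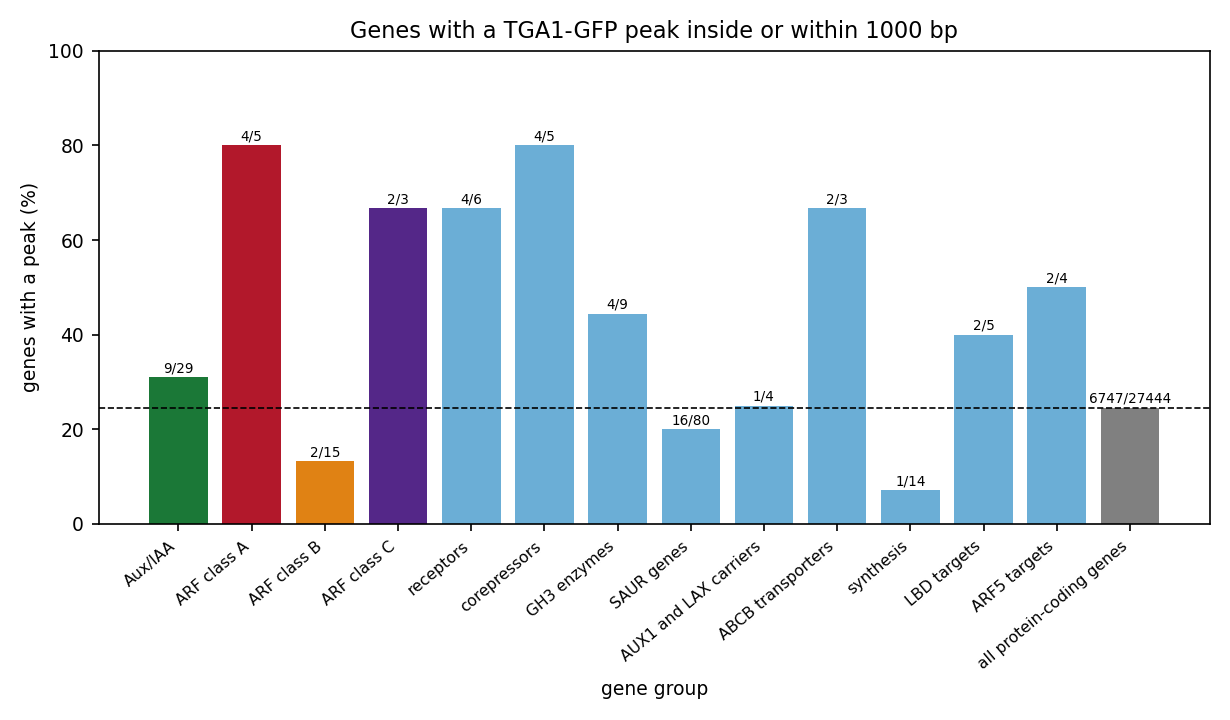
Bars are the share of genes (%) with a peak inside or within 1000 bp, for the Aux/IAA genes, the 3 ARF classes, other auxin gene groups and all protein-coding genes (also the dashed line, 24.6%), with the number of genes above each bar. Groups of under 10 genes move by over 10 percentage points with 1 gene.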

How the data were processed

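The submitters' processing notes name Bowtie2, MACS2 and TAIR10. Versions, thresholds, filters and any use of the IgG library as the control were not given in the sources used here. Per the labels and the file, the deposited peak list has 3 columns, chromosome, start and end. Starts were taken to count from 0, as in BED files, and are printed 1 higher. Width is end minus start, and the midpoint, rounded down, stood for the summit. Genes came from a RefSeq table of TAIR10.1, whose nuclear chromosomes are those of TAIR10 and which gives no strand or exons. A gene was counted when a midpoint lay inside it or within 1000 bp, and a peak could count for several genes. Neighbours were genes centred within 250000 bp. Every gene of the set was accounted for; in other auxin groups up to 4 genes with the earliest peaks were named, by symbol or synonym. The PIN group is not reported here by itself. The gene set, the other auxin list and the comparisons were chosen with earlier results of these data known. Planned displays of promoters, motifs and proteins were not made, since no sequence was used here. With 1 peak list and no replicate no test was run. Assignment code was tested on simulated peaks. Tools were pandas 2.3.3, numpy 2.4.6, scipy 1.17.1 and matplotlib 3.10.9 under Python 3.11.15.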

Additional observations from a re-analysis of the deposited data

How the results depend on the processing

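The 17 genes with a peak became 13 to 24 under 5 alternatives. These were reaches of 500 and 2000 bp, any overlap, nearest protein-coding gene alone and the wider of 2 equal parts of the list. Counting midpoints inside genes alone left 5 genes, 3 Aux/IAA and 2 ARF, against 6.69% of all protein-coding genes. The earlier of 2 equal parts of the list left 11 genes (21.2%), against 13.2% of all protein-coding genes. Of these, 4 were Aux/IAA (13.8%, near the 13.2%) and 7 were ARF genes (30.4%). Both alternatives drop gene and peak pairs by construction, as do the 500 bp reach, the nearest protein-coding gene alone and the wider part of the list. The difference in share from all protein-coding genes was 8.11 points by the rule used and stayed positive under all 8 alternatives. All 8 recount the same 1 list, so they are not independent of each other or of the rule used. The difference lay between 2.93 points (midpoint inside) and 14.3 points (2000 bp reach). Without ARF12 to ARF15 and ARF20 to ARF23 of chromosome 1 it was 14.1 points. That rise is by construction, since none of these 8 genes had a peak and the background was left unchanged. The median width of the peaks was 428 bp at both other reaches and 507.5 bp without IAA16, an alternative added after the data were examined, which also put the median place at 3747. Of the 138 other auxin genes, 40 had a peak by the rule used, against 24.6% of all protein-coding genes. At 500 bp 32 did, against 19.1%, and at 2000 bp 58, against 31.8%. Alternatives for motifs were not run, since no sequence was used here. No paired analysis was possible because each antibody had 1 library and the list holds no values per library.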

Other observations

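Of the Aux/IAA genes 3 pairs are direct neighbours on their chromosomes, and 1 of these 6 genes, IAA2, had a peak in reach. The shares beside it are 31.0% of the Aux/IAA genes and 24.6% of all protein-coding genes. With 6 genes nothing is read from this count. The 10732 bp between IAA14 and IAA1 and the 12510 bp between IAA2 and IAA7 held no peak midpoint. The 6388 bp between IAA3 and IAA17 held 1, of a 400 bp peak at place 6607, in reach of neither gene.

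Several ARF transcripts are cut by small RNAs, and the genes of these RNAs were looked up after the values above were seen. TAS3, the source of the small RNAs that target ARF2, ARF3 and ARF4, had the midpoint of a 370 bp peak at place 1763 at 148 bp from the gene. Of 9 genes of miR160, miR167 and miR390, MIR167C alone had a midpoint within 1000 bp, of a 502 bp peak at 904 bp. The share of all microRNA genes with a peak was not computed, so nothing is read from this count. MIR160A had a 1094 bp peak 1156 bp away and MIR167A a 704 bp peak 1548 bp away, both beyond the reach. MIR160B, MIR160C, MIR167B, MIR167D, MIR390A and MIR390B had their nearest midpoints 4027 to 17963 bp away.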
